A study of Homo sapiens with 8 samples.

Results

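A set of 10 genes of intestinal differentiation were followed through HCT116 colorectal cancer cells that did or did not carry a *TET1* knockdown and that were or were not treated with a DNA methylation inhibitor. They are *CDX1*, *CDX2*, *KRT20*, *VIL1*, *MUC2*, *TFF1*, *TFF2*, *TFF3*, *LGALS4* and *CEACAM6*, taken by name from the gene name column of the array, and they make up 10 of its 34423 gene names and 16 of its 50599 probes. The intestinal epithelium renews itself from crypt stem cells, whose progeny become absorptive enterocytes, which carry a brush border, or secretory cells such as mucus-producing goblet cells. The homeobox factors CDX1 and CDX2 specify this lineage, and keratin 20, villin, the gel-forming mucin MUC2, the trefoil factors and galectin 4 are products of its mature cells. Colorectal cancers retain these products to different degrees, and DNA methylation is known to silence some of them.

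Gene expression was measured once in each of 4 HCT116 clones, untreated and after 1 µM 5-aza-dC (5-aza-2′-deoxycytidine, which blocks DNA methyltransferases once built into DNA), given for 72 h. All 4 clones were transfected with a vector for an artificial miRNA and selected in G418. CONT1 and CONT2 carried the negative control miRNA, and TET1-KD1 and TET1-KD2 carried miRNAs against *TET1*, which encodes an enzyme that oxidizes 5-methylcytosine. Each condition therefore has n = 2, each array a different clone, and the p-values measure the spread between clones. The treatment field of the labels gives mock treatment for every control array and 5-aza-dC for every knockdown array, whereas the titles give each clone once without and once with the drug, and the titles were followed. All 10 tested epithelial genes, *EPCAM* and the keratins *KRT8* and *KRT18* among them, were above background on all 4 untreated arrays, as the label of an epithelial cancer line requires. In these bulk samples, fewer cells of a type and less RNA per cell cannot be told apart.

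Values are log2 signals after each array was scaled to its 75th percentile, and a spot counts as above background when the scanner software called it well above background. Between 29490 and 34276 spots were above background on an array. The knockdown arrays and the untreated control arrays shared 1 slide, whereas both 5-aza-dC arrays of the control clones were on a second slide. There, after scaling, spike-in control RNAs with a mean signal of 7.80 and 9.25 read lower by a difference of -0.57 in log2 signal, one at 4.58 differed by -0.05, and those at 2.24 and 17.96 read higher by 0.41 and 0.40. In the control clones slide and treatment cannot be told apart. Between the treated clones slide and kind of clone cannot be told apart, and the difference in response carries the same slide contrast.

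The brightest *TET1* probe (hg19 chr10:70332072-70332131) read 9.70 and 9.75 in the untreated CONT1 and CONT2, against 8.65 and 9.41 in the untreated TET1-KD1 and TET1-KD2. Both knockdown clones were below both control clones, with TET1-KD1 the lower. The difference of -0.69 ± 0.289 (SE) in log2 signal did not pass limma's test (adjusted p = 0.61). At the other 2 *TET1* probes the untreated knockdown signal differed by -0.98 (adjusted p = 0.585 by limma) and was at least 1.2-fold lower (measured means 4.66 and 2.52, adjusted p = 0.37 by limma), the latter with neither untreated knockdown array well above background. After 5-aza-dC the brightest probe read 9.64 in both control clones, and 8.99 and 9.48 in TET1-KD1 and TET1-KD2.

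The 10 genes did not move as a group after 5-aza-dC. *KRT20*, *TFF2*, *TFF3* and *LGALS4* rose in both kinds of clone, in the control clones by 6.28-fold for *LGALS4*, 17.0-fold for *KRT20*, 39.7-fold for *TFF3* and at least 30-fold for *TFF2*. These folds hold for this scaling and background treatment only. With normexp background correction the rise was 3.20 for *TFF3* and 3.01 for *TFF2* in log2 signal. *MUC2*, *CDX1* (not at its second probe) and *TFF1* fell in the control clones, whose treated arrays alone lay on the second slide. No fall passed the test in the knockdown clones. Of these genes only *MUC2* passed limma's test of the difference in response (adjusted p = 0.0401). *CDX1* (adjusted p = 0.0691) and *TFF1* (0.22 in log2 signal, adjusted p = 0.639) did not. *CDX2* did not pass the test in either kind of clone, *VIL1* came above background on 1 treated array of each kind, and *CEACAM6* was not well above background on any of the 8 arrays.

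To be tested, a probe had to exceed background on each of the 2 arrays of some condition, and this held for 12 of the 16 probes and 8 of the 10 genes. *VIL1* and *CEACAM6* had no tested probe. In the control clones limma called 4 of the 8 tested genes higher, where 20.5% of the 19688 tested gene names were called higher, and 3 lower, where 21.3% were called lower. For the knockdown clones it called 4 higher, where 9.45% were, and 0 lower, where 3.09% were. Of the 8, 5 had an unadjusted p below 0.05 there, namely the 4 that rose and *TFF1*. The median change of the 8 tested genes was 1.45 in log2 signal for control and 1.30 for knockdown clones, beside medians of -0.05 and -0.06 over all tested gene names. *TFF2*, *TFF3* and *LGALS4* passed the background filter only through the treated arrays, so that a rise was a condition of their being tested. The counts and medians describe these genes and support nothing further.

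**Figure D1:**
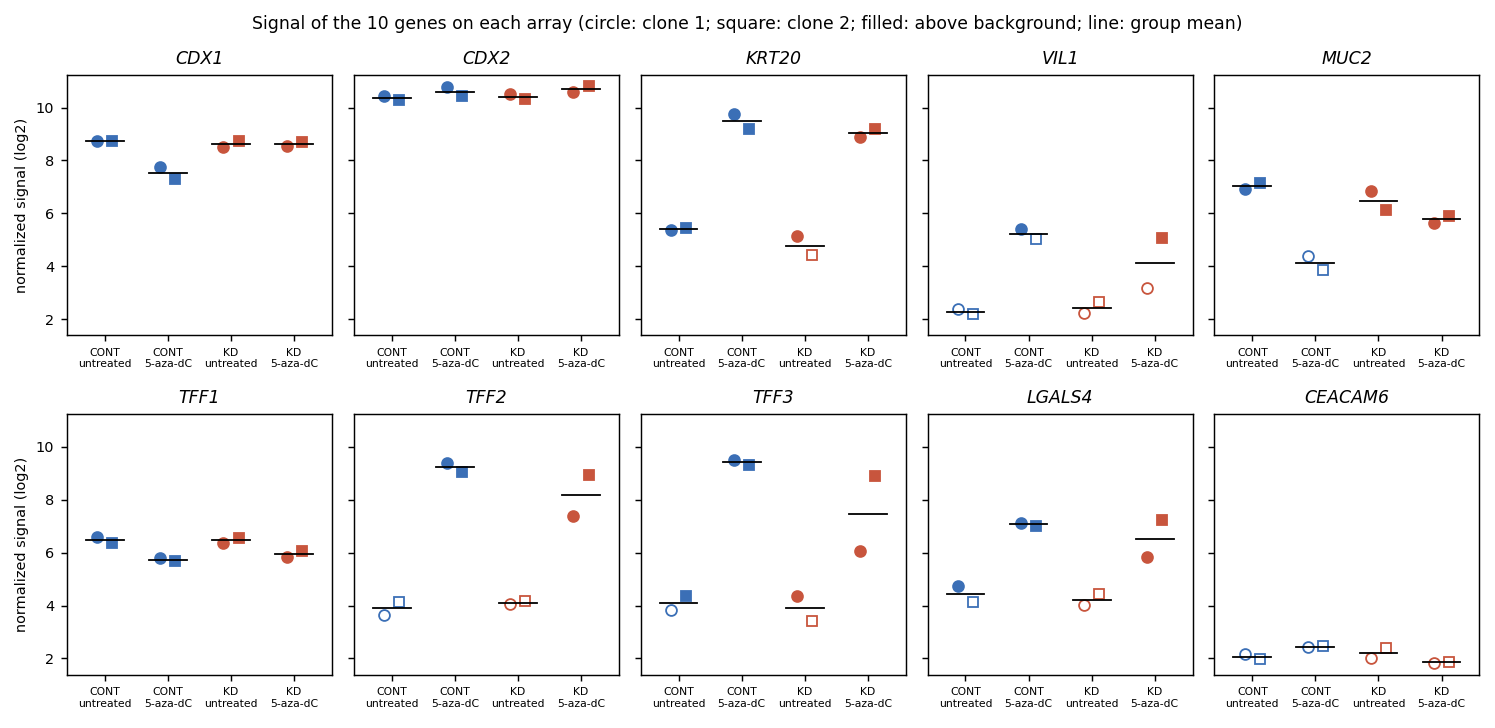
Normalized log2 signal of the probe that stands for each of the 10 genes, on every array. Blue marks control and red *TET1* knockdown clones, circles clone 1 and squares clone 2, filled marks arrays above background and lines the mean of 2 clones. *KRT20*, *TFF2*, *TFF3* and *LGALS4* lie higher on all 4 treated arrays than on any untreated array, *MUC2* is below background on both treated control arrays, and *CDX2* stays between 10.29 and 10.80.

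*CDX2* encodes the homeobox factor that directs intestinal fate in the embryo and maintains it in the adult. Its probe (hg19 chr13:28536302-28536361) read 10.43 and 10.29 in the untreated CONT1 and CONT2 and 10.78 and 10.42 after 5-aza-dC. It read 10.50 and 10.33 in the untreated TET1-KD1 and TET1-KD2 and 10.60 and 10.80 after 5-aza-dC. The signal was above background on every array, and each clone's treated array was the higher one, by 0.10 to 0.47 in log2 signal. The change was 0.24 ± 0.186 (SE; 95% interval -0.21 to 0.69) in the control clones, with an adjusted p of 0.339 by limma, and 0.29 ± 0.186 (95% interval -0.16 to 0.74) in the knockdown clones, with an adjusted p of 0.374. The sign in the control clones turned to -0.22 when the trend on probe GC content was subtracted, and the change passed at 0.55 (adjusted p = 0.0425 by limma) with spike-in scaling.

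*CDX1*, the related homeobox gene expressed along the crypt, had a bright probe (hg19 chr5:149563184-149563243) that was above background on all arrays. It read 8.73 in CONT1 and 8.74 in CONT2 and went to 7.77 and 7.29 after 5-aza-dC. Knockdown clones read 8.50 and 8.74 untreated and 8.54 and 8.68 after treatment. Only the 2 treated control arrays, those of the second slide, stood apart from the other 6. The control change of -1.21 ± 0.204 (SE) passed limma's test (adjusted p = 0.00544), whereas the knockdown change of -0.01 ± 0.204 did not (adjusted p = 0.988). With spike-in scaling the control change was -0.52 (adjusted p = 0.0564 by limma).

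The second *CDX1* probe lies 183 bases further along chromosome 5 and did not show this fall. It read 2.30 and 6.38 in untreated and 4.52 and 5.65 in treated control clones, and 3.41, 2.50, 4.51 and 5.40 in TET1-KD1, TET1-KD2 and their treated arrays. It was above background on 4 of the 8 arrays, and its groups overlapped. Its control change was 0.74 ± 1.26 (SE) in log2 signal, with an adjusted p of 0.664 by limma. With the mean of both probes the *CDX1* change in the control clones was -0.23 (adjusted p = 0.792 by limma).

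*KRT20* encodes keratin 20, an intermediate filament protein of mature enterocytes and goblet cells. Its probe (hg19 chr17:39032532-39032591) read 5.37 and 5.43 in the untreated CONT1 and CONT2 and 9.77 and 9.20 after 5-aza-dC. In TET1-KD1 and TET1-KD2 it read 5.14 and 4.41 untreated, the last not well above background, and 8.87 and 9.20 after treatment. Treated and untreated arrays did not overlap in either kind of clone. The rise was 4.08 ± 0.306 (SE), or 17.0-fold, in the control clones (adjusted p = 0.00031 by limma) and 4.26 ± 0.306, or 19.2-fold, in the knockdown clones (adjusted p = 0.000422 by limma). Among the genes that rose, *KRT20* was the only one whose untreated control signal was above background in both clones.

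*VIL1* encodes villin, the actin-bundling protein of brush border microvilli. Its probe (hg19 chr2:219314095-219314154) was above background on 2 of the 8 arrays, the treated CONT1 and the treated TET1-KD2, and was not tested. It read 2.37 and 2.18 in the untreated control clones, 5.40 and 5.03 in the treated ones, 2.24 and 2.63 in the untreated knockdown clones and 3.18 and 5.05 in the treated ones. The treated array was the higher one in each of the 4 clones. Since 1 of the 2 treated arrays of each kind of clone measured it and no untreated array did, no fold is given. The measured means were 2.28 and 5.22 in the control and 2.44 and 4.12 in the knockdown clones.

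*MUC2* encodes the gel-forming mucin that goblet cells secrete, and 4 probes of the array carry its name. The brightest (hg19 chr11:1092337-1092396) read 6.91 and 7.13 in the control clones before 5-aza-dC and 4.40 and 3.84 after it, where it was not well above background. The knockdown clones read 6.83 and 6.14 untreated and 5.65 and 5.91 after treatment. All 4 clones read lower after treatment, TET1-KD1 by a change of -1.17 and TET1-KD2 by -0.23, and the control clones down to signals that were not measured above background. The control signal was at least 5.72-fold lower after 5-aza-dC (measured means 7.02 and 4.12), with an adjusted p of 0.000904 by limma. Such a bound sets the measured group against the dimmest signal called above background on each array of the other (or its own reading there, where higher), and holds for this scaling only. With normexp background correction the control change of *MUC2* was -1.03 in log2 signal (adjusted p = 0.003), and with an offset of 50 it was -1.41 (adjusted p = 0.00112). The knockdown change was -0.70 ± 0.298 (SE), with an adjusted p of 0.19.

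A second *MUC2* probe (hg19 chr11:1103558-1103831) gave the same picture in the control clones, at 5.68 and 5.73 untreated and 3.74 and 2.82 treated. That is at least 2.31-fold lower, with an adjusted p of 0.00246 by limma. In the knockdown clones it read 5.55 and 6.0 untreated and 5.48 and 5.78 treated, a change of -0.15 ± 0.329 (SE; adjusted p = 0.817 by limma). The other 2 *MUC2* probes were not well above background on any array. With spike-in scaling the control change at the brightest probe was -2.76 (adjusted p = 0.00131 by limma), beside a slide difference of -0.57 for the spike-in of the nearest signal.

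The trefoil factors are small secreted peptides that protect and repair mucosa. TFF1 and TFF2 are best known from gastric mucous cells and TFF3 from intestinal goblet cells, and their genes lie side by side. On the array their probes fell within 51723 bases of chromosome 21 (hg19 chr21:43731777-43783499), with 15793 bases between those of *TFF2* and *TFF1*. *TFF2* and *TFF3* rose in both kinds of clone, whereas the *TFF1* signal was lower on all 4 treated arrays than on any untreated array.

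*TFF2* (probe hg19 chr21:43766648-43767646) read 3.65 and 4.14 in the untreated control and 4.07 and 4.16 in the untreated knockdown clones, with none of these 4 arrays well above background. After 5-aza-dC it read 9.39 and 9.05 in CONT1 and CONT2, and 7.39 and 8.94 in TET1-KD1 and TET1-KD2. It was thus at least 30-fold higher in the control clones (measured means 3.90 and 9.22, adjusted p = 0.000604 by limma). In the knockdown clones it was at least 13.6-fold higher (measured means 4.11 and 8.16, adjusted p = 0.00355 by limma).

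*TFF3* had 3 tested probes. The brightest (hg19 chr21:43731777-43731813) read 3.84 and 4.37 in untreated and 9.52 and 9.32 in treated control clones. That is a rise of 5.31 ± 0.859 (SE), or 39.7-fold, with an adjusted p of 0.00462 by limma. The untreated CONT1 was not well above background, so this fold rests in part on a signal at background. In TET1-KD1 the probe went from 4.36 to 6.08 and in TET1-KD2 from 3.43, not well above background, to 8.88. The knockdown clones thus rose by 1.72 and 5.45 in log2 signal, the widest gap between 2 clones of a kind among the 8 tested genes. Their mean rise of 3.59 ± 0.859 was just past the threshold (adjusted p = 0.0471 by limma), and with the clone as a block the adjusted p was 0.079. It held without the treated TET1-KD1 array and was lost without any 1 of the other 7 arrays, at adjusted p-values of 0.0581 (without the treated TET1-KD2 array) to 0.168 (without the untreated TET1-KD2 array). In every fit without 1 array, the lone clone left in that condition is assumed to vary like the other conditions.

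The other *TFF3* probes, at hg19 chr21:43733595-43733654 and chr21:43735531-43735590, rose in the control clones as well, by 3.99 ± 1.11 (SE; adjusted p = 0.0302 by limma) and by 4.44 ± 0.676 (adjusted p = 0.00374 by limma). Neither was above background on an untreated control array, so the treated control signal was at least 5.02-fold and at least 4.99-fold higher. The probes disagreed for the knockdown clones. One rose by 3.11 ± 0.676 (adjusted p = 0.035 by limma), whereas the other, which read 5.76 in the untreated TET1-KD1 against 2.85 in TET1-KD2 and 4.36 and 6.72 after treatment, changed by 1.23 ± 1.11 (adjusted p = 0.527 by limma).

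*TFF1* (probe hg19 chr21:43783440-43783499) was above background on every array. It read 6.59 and 6.35 in the control clones before and 5.80 and 5.67 after 5-aza-dC, and 6.38 and 6.57 in the untreated knockdown clones and 5.83 and 6.08 after it. The lowest untreated signal was thus above the highest treated one. The change was -0.74 ± 0.176 (SE) in the control clones (adjusted p = 0.0181 by limma) and -0.52 ± 0.176 in the knockdown clones (adjusted p = 0.115 by limma). The control call was lost without any 1 of the 4 control arrays (adjusted p = 0.0505 without CONT2 to 0.112 without CONT1, both untreated) and with spike-in scaling (-0.37, adjusted p = 0.117).

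*LGALS4* encodes galectin 4, a lectin of the intestinal epithelium that takes part in apical protein sorting. Its probe (hg19 chr19:39292766-39292983) read 4.73 and 4.13 in the control clones before 5-aza-dC and 7.13 and 7.02 after it. The untreated CONT2, at 4.13, was not well above background. The knockdown clones read 4.02 and 4.43 untreated, both not well above background, and 5.82 and 7.24 treated. Treated and untreated arrays did not overlap. The rise was 2.65 ± 0.469 (SE), or 6.28-fold, in the control clones (adjusted p = 0.00637 by limma). In the knockdown clones it was at least 4.39-fold (measured means 4.23 and 6.53, adjusted p = 0.0282 by limma). That call was lost without the treated CONT1 or CONT2 array (adjusted p = 0.0586 each), the untreated TET1-KD1 or TET1-KD2 array (0.109 and 0.0798) or the treated TET1-KD2 array (0.0568).

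*CEACAM6*, a cell adhesion molecule of the carcinoembryonic antigen family that the upper crypt and many colorectal cancers express, read 1.84 to 2.47 over the 8 arrays (probe hg19 chr19:42275434-42275493). No array was above background, so neither a fold nor a test is given.

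**Figure D2:**
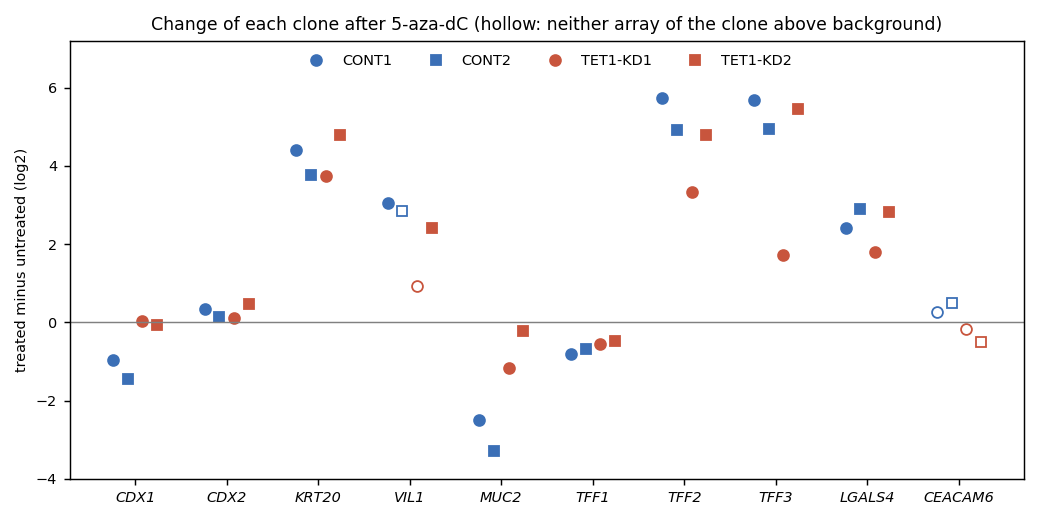
Treated minus untreated log2 signal of each clone for the 10 genes. Blue marks control and red knockdown clones, and hollow points clones in which neither array was above background. TET1-KD1 lies lowest for *KRT20*, *VIL1*, *TFF2*, *TFF3* and *LGALS4*, at 1.72 for *TFF3* against 4.94 or more in the other clones, and the control clones lie below both knockdown clones for *CDX1*, *MUC2* and *TFF1*.

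Of the genes that rose, *TFF2*, *TFF3* and *LGALS4* were below background on at least 1 untreated control array, while *CDX1*, *CDX2*, *MUC2* and *TFF1* were above background on all 4 untreated arrays. *KRT20* was above background in both untreated control clones, and of the 17345 tested gene names for which this held, 14.3% were called higher in the control clones. A gene name below background there could be tested only through another condition, so no share is given for these. The size of the rises depended on how background was treated. With normexp background correction the control rise was 2.78 for *KRT20*, 3.01 for *TFF2*, 3.20 for *TFF3* and 1.22 for *LGALS4* in log2 signal, each still called by limma (adjusted p = 0.000109, 0.000777, 0.00296 and 0.0112). In the same setting the knockdown rise was 2.64 for *KRT20* and 2.14 for *TFF2* (adjusted p = 0.000246 and 0.0093 by limma), and those of *TFF3* (1.82, adjusted p = 0.0635) and *LGALS4* (0.96, adjusted p = 0.0647) were not called.

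**Figure D3:**
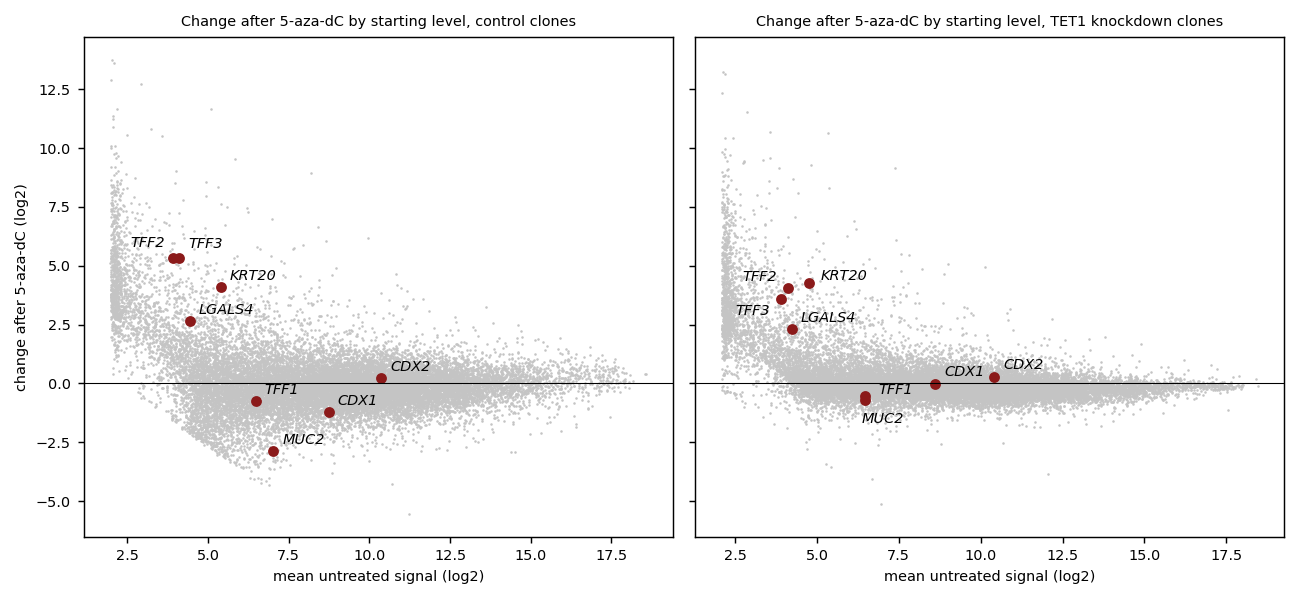
Change after 5-aza-dC (log2) against the mean untreated log2 signal in the control clones (left) and the *TET1* knockdown clones (right), with grey points for all 19688 tested gene names, each by its brightest tested probe, and red points for the 8 tested genes of intestinal differentiation. *TFF2*, *TFF3*, *KRT20* and *LGALS4* lie among the dim probes that rose, and *MUC2* near the lower edge in the control clones alone.

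The falls in the control clones can be set beside the slide difference. The spike-in with a mean signal of 7.80, between the untreated control means of *MUC2* (7.02) and *CDX1* (8.74), changed by -0.57. With spike-in scaling 6 of the 8 genes were called in the control clones, *CDX2* among them and *CDX1* and *TFF1* not, at the values given above. The tenth of tested probes richest in GC read -0.53 and -0.61 from the untreated control mean on the 2 treated control arrays. There slide and treatment cannot be told apart. On the knockdown arrays, all on the first slide, it read -0.15 and -0.07 untreated and -0.23 and -0.09 after 5-aza-dC, in TET1-KD1 and TET1-KD2. With the trend on GC content subtracted *CDX1* changed by -0.83 (adjusted p = 0.0121 by limma), *TFF1* by -0.58 (adjusted p = 0.021) and *MUC2* by -2.74 (adjusted p = 0.00113).

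**Figure D4:**
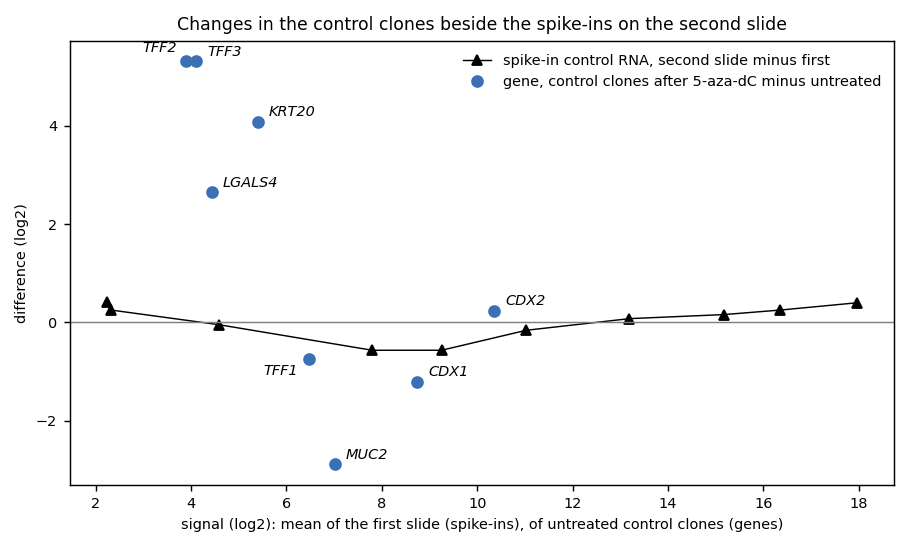
Black triangles give the spike-in control RNAs, as their mean log2 signal on the first slide and the difference of the second slide, and blue points the 8 tested genes, as their untreated mean and their change after 5-aza-dC in the control clones. The triangles reach -0.57, while *CDX1* lies at -1.21, *TFF1* at -0.74 and *MUC2* at -2.89 (measured, its treated signal not well above background), and the 4 genes that rose lie at 2.65 or higher.

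The promoters of 5 of the 10 genes were matched in RefSeq (GRCh38.p14), namely *CDX2*, *KRT20*, *MUC2*, *LGALS4* and *CEACAM6*. *CDX1*, *VIL1*, *TFF1*, *TFF2* and *TFF3* were not matched. The 250 bases before the start of 4 of them are shown 5′ to 3′, with each CpG, the dinucleotide that DNA methyltransferases modify, in capitals. They were picked for the contrast in response, with *KRT20* and *LGALS4* rising, *MUC2* falling in the control clones and *CDX2* not called. The windows are chr17:40885243-40885492 (minus strand) for *KRT20*, chr19:38812946-38813195 (minus strand) for *LGALS4*, chr11:1074624-1074873 (plus strand) for *MUC2* and chr13:27969316-27969565 (minus strand) for *CDX2*.
KRT20: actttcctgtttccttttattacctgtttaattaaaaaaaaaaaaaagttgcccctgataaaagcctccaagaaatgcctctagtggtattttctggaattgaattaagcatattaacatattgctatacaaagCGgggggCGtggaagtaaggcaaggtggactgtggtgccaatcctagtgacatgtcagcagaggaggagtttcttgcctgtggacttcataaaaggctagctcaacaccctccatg
LGALS4: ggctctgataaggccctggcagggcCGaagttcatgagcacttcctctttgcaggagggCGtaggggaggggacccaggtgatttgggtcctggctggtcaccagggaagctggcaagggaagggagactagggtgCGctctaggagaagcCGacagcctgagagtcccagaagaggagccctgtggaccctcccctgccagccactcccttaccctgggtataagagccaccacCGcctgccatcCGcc
MUC2: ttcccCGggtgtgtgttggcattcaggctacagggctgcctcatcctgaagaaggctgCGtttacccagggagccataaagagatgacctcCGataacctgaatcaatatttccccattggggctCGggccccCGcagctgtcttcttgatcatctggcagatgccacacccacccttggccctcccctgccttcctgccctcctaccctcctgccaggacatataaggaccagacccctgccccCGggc
CDX2: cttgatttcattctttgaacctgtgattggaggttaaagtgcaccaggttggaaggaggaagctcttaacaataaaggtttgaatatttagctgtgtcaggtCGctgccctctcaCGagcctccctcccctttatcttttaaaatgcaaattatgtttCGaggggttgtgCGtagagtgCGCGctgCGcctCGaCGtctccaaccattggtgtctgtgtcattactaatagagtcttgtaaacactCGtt

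The *KRT20* window held 2 CpGs, and 22.9% of all 35114 promoters of the table held as few or fewer, beside a median of 11. *LGALS4* and *MUC2*, which moved in opposite directions in the control clones, held 6 each, at a GC content of 63.2% and 59.6%. *CDX2* held 10 and *CEACAM6* 5. Methylation of these CpGs was not analysed here. The letters TTTAT, which occur in sites that CDX factors are known to bind, were searched on both strands (as TTTAT or ATAAA, the latter within TATAAA too). They were found 3 times in the *KRT20* window, 2 times in that of *CDX2*, 1 time in those of *MUC2* and *CEACAM6* and not in that of *LGALS4*, and 32.7% of all promoters held at least 1.

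Without treatment, none of the 8 tested genes was called between the kinds of clone, at an adjusted or an unadjusted p below 0.05 by limma, where 0.0203% of gene names were called in either direction (4 gene names). The differences, knockdown minus control, ran from -0.63 ± 0.306 (SE) for *KRT20* to 0.22 ± 0.487 for *TFF2*, which was below background in both. The 95% interval was -0.40 to 0.50 for *CDX2* and -1.37 to 0.11 for *KRT20*, so that a difference of up to 0.5 in either direction for the former and a lower level of up to 1.37 for the latter lie within it. For *TFF3* it was -2.29 to 1.87, too wide to bound a several-fold difference.

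After 5-aza-dC, the knockdown clones exceeded the control clones at 2 of the 8 genes by limma, where 10.7% of gene names were called higher, and fell short at 0, where 7.71% were called lower. These 2 were also the only ones with an unadjusted p below 0.05. Only the treated control arrays lay on the second slide, so slide and kind of clone cannot be told apart here. *MUC2* was at least 2.43-fold higher (measured means 5.78 and 4.12, adjusted p = 0.0157 by limma), and its second probe at least 2.19-fold (adjusted p = 0.00742 by limma). *CDX1* was higher by 1.08 ± 0.204 (SE), with an adjusted p of 0.0183 by limma, and its second probe differed by -0.13 ± 1.26 (adjusted p = 0.954 by limma). Both calls were lost without the treated CONT2 array (adjusted p = 0.0675 and 0.063), the treated TET1-KD1 array (0.057 and 0.0636) or the treated TET1-KD2 array (0.0616 and 0.0658). The *MUC2* difference was 0.28 (adjusted p = 0.282 by limma) with normexp background correction and 0.63 (adjusted p = 0.0399) with an offset of 50. That of *CDX1* was 0.59 (adjusted p = 0.0604 by limma) with spike-in scaling, 0.63 (adjusted p = 0.0588) with the GC trend subtracted and 0.48 (adjusted p = 0.635) for the mean of its probes.

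*TFF2* and *TFF3* had lower means in the treated knockdown clones, by a difference of -1.06 ± 0.487 (SE; adjusted p = 0.176 by limma) and of -1.94 ± 0.859 (adjusted p = 0.163 by limma). Without the treated TET1-KD1 array they were -0.28 (adjusted p = 0.556 by limma) and -0.54 (adjusted p = 0.481). Its treated array read 7.39 for *TFF2* and 6.08 for *TFF3*, while TET1-KD2 with 8.94 and 8.88 was close to the control clones at 9.05 to 9.52. Without the treated TET1-KD2 array they were -1.83 (adjusted p = 0.0247 by limma) and -3.33 (adjusted p = 0.0194 by limma), values that compare TET1-KD1 alone with the control clones. TET1-KD1 was also the clone with the lower *TET1* signal, and with 1 clone at each level this relation cannot be tested. The paper used different artificial miRNAs to make these clones, so miRNA, clone and *TET1* level cannot be told apart here.

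The response to 5-aza-dC itself differed between the kinds of clone for 1 of the 8 genes, where 5.27% of gene names were called in either direction. The measured *MUC2* response was -2.89 in the control and -0.70 in the knockdown clones, a difference of 2.19 ± 0.421 (SE; adjusted p = 0.0401 by limma), and at its second probe 2.28 ± 0.465 (adjusted p = 0.0466 by limma). Neither probe was well above background on the treated control arrays, so these sizes rest on signals at background. Those arrays alone lay on the second slide, so slide and a difference in response cannot be told apart. The difference at the brightest probe was 0.61 (adjusted p = 0.196) with normexp background correction, 0.99 (adjusted p = 0.061) with an offset of 50, 2.05 (adjusted p = 0.055) with spike-in scaling and 2.19 (adjusted p = 0.0705) with the clone as a block, and it was called under 6 of 19 alternatives. It held without the treated CONT1 array (adjusted p = 0.0477) and was lost without any 1 of the other 7 (adjusted p = 0.0545 without the untreated TET1-KD1 to 0.143 without the untreated CONT2). *CDX1* missed the threshold at 1.20 ± 0.289 (adjusted p = 0.0691), and passed without the treated CONT1 array (1.44, adjusted p = 0.0493). For *KRT20* the difference was 0.18 ± 0.433, with a 95% interval of -0.87 to 1.23.

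**Figure D5:**
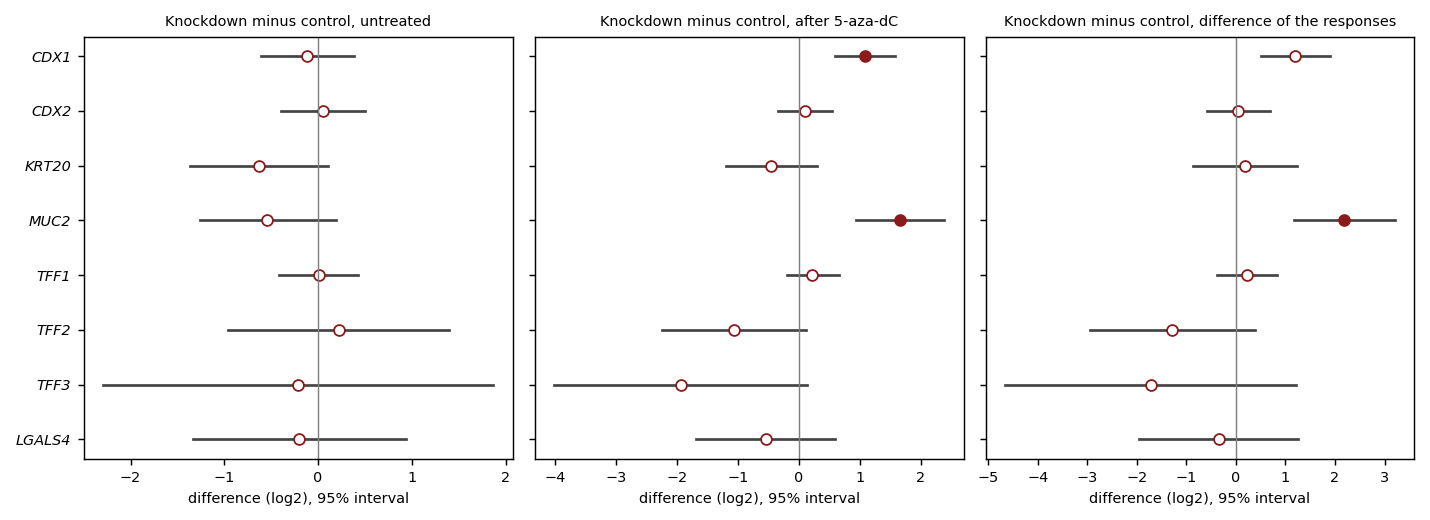
Knockdown minus control difference in log2 signal for the 8 tested genes, untreated (left), after 5-aza-dC (middle) and as the difference of the 2 responses (right). Lines give the 95% interval from limma, n = 2 clones a condition, and filled points passed at an adjusted p below 0.05. Filled points are *CDX1* and *MUC2* after 5-aza-dC and *MUC2* for the responses, and the interval of *TFF3* is the widest in all 3 panels.

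Other intestinal genes were also called in both directions, as were gene names over the whole array. In the control clones slide and treatment cannot be told apart for the lists below either. Of 29 transcription factors of the lineage, 23 were tested, and 5 rose and 3 fell in the control clones, 4 rose and 0 fell in the knockdown clones. Over all tested gene names the shares called were 20.5% and 21.3% in the control and 9.45% and 3.09% in the knockdown clones, and as for *TFF2*, genes such as *ASCL2* and *GATA5* were tested only through the treated arrays. *ASCL2*, a factor of crypt stem cells, was at least 23.9-fold higher in the control clones (adjusted p = 0.00023 by limma) and at least 12.7-fold in the knockdown clones (adjusted p = 0.000669). *GATA5*, an endodermal GATA factor, was at least 18.0-fold higher (adjusted p = 0.000946 by limma) and at least 5.03-fold higher (adjusted p = 0.00871). *ELF3*, an epithelial ETS factor, fell by 2.41 in log2 signal in the control clones (adjusted p = 0.00246 by limma) and changed by -0.85 in the knockdown clones (adjusted p = 0.156). Its difference in response, 1.57, did not pass limma's test (adjusted p = 0.105). The median change of the 23 was 0.18 in the control and 0.65 in the knockdown clones.

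Among 37 enterocyte and brush border genes, 16 were tested. In the control clones 3 rose and 5 fell, and in the knockdown clones 3 rose and 0 fell, with medians of -0.02 and 0.03. Over all tested gene names 20.5% were called higher and 21.3% lower in the control clones, and 9.45% and 3.09% in the knockdown clones. *ANPEP*, a brush border peptidase, was at least 4.88-fold higher in the control clones (adjusted p = 0.00789 by limma) and higher by 2.40 in the knockdown clones (adjusted p = 0.0473). *SLC5A1*, the intestinal glucose transporter, was at least 2.36-fold higher in the knockdown clones (adjusted p = 0.00155 by limma) and not well above background on any control array, although its control rise is among those counted. The same holds for *AQP8*, a water channel, which was not well above background on any control array and is among the control falls. *DPP4*, another brush border peptidase, fell by 1.89 in the control clones (adjusted p = 0.0327 by limma), and *PLS1*, which bundles actin in microvilli as villin does, by 1.06 (adjusted p = 0.0104 by limma).

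The goblet cell and mucin list had 11 of its 24 genes tested. In the control clones 1 rose and 3 fell, and in the knockdown clones 3 rose and 0 fell, with medians of -0.11 and 0.46. The shares over all tested gene names were again 20.5% and 21.3% in the control and 9.45% and 3.09% in the knockdown clones. The control falls were those of *GALNT12*, an enzyme of mucin-type glycosylation, by 1.70 (adjusted p = 0.00261 by limma), of *RETNLB*, a goblet cell peptide, by 1.60 (adjusted p = 0.0108) and of the membrane mucin gene *MUC4* by 1.47 (adjusted p = 0.0112). In the knockdown clones *MUC4* changed by 0.12 (adjusted p = 0.846 by limma). No gene of this list passed limma's test of the difference in response. *ITLN1*, a goblet cell lectin, was at least 1.59-fold higher in the control clones (adjusted p = 0.000202 by limma).

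Of 18 enteroendocrine and Paneth cell genes 17 were on the array and 5 were tested. In the control clones 2 rose and 1 fell, beside shares of 20.5% and 21.3% over all tested gene names. In the knockdown clones 2 rose and 0 fell, beside shares of 9.45% and 3.09%. *CCK*, which encodes the hormone cholecystokinin, read 7.68 and 7.59 in the control clones before 5-aza-dC and 13.52 and 13.22 after it, a rise of 5.73 (adjusted p = 8.99e-05 by limma), and it rose by 4.86 in the knockdown clones (adjusted p = 0.000229). *CHGA*, a secretory granule protein gene, was at least 8.39-fold and at least 4.62-fold higher (adjusted p = 0.000945 and 0.00129 by limma). Its probe was tested only through the treated arrays. *GCG*, the glucagon precursor gene, was at least 4.26-fold lower in the control clones (adjusted p = 0.0116 by limma).

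Of 16 crypt stem cell genes 13 were tested, and 3 rose and 0 fell in the control clones, while 1 rose and 1 fell in the knockdown clones. The control rises of *ASCL2* and *SOX9* and the knockdown rise of *ASCL2* were already counted among the transcription factors. Of the 10 epithelial identity genes, 1 rose and 2 fell in the control clones, and 0 moved in the knockdown clones. For both lists the shares over all tested gene names were 20.5% and 21.3% in the control and 9.45% and 3.09% in the knockdown clones. *EPCAM* fell by 0.89 (adjusted p = 0.0416 by limma) and *KRT8* by 0.75 (adjusted p = 0.0423) in the control clones, where *KRT18* rose by 0.61 (adjusted p = 0.0431). There slide and treatment cannot be told apart, and 0 to 4 epithelial identity genes were called over the alternatives. No gene of these 6 lists was called between the kinds of clone without treatment, or for the difference in response.

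Markers of cell types that a clonal line should not hold also rose. In the control clones 6 of 6 tested leukocyte, 3 of 4 fibroblast and 2 of 3 endothelial genes were called higher, and 1 endothelial gene lower. For the knockdown clones these numbers were 3, 1 and 1, with 0 lower. Over all tested gene names 20.5% were called higher and 21.3% lower in the control clones, and 9.45% and 3.09% in the knockdown clones. Above background on all 4 untreated arrays were 5 of the 6 leukocyte, 1 of the 4 fibroblast and 1 of the 3 endothelial genes. *THY1*, of the fibroblast list, was at least 44.1-fold higher in the control clones (adjusted p = 0.000161 by limma). A gene below background on both untreated control arrays, as *THY1* was, could be tested only through another condition. For such genes the shares over all gene names are no fair comparison. The summed linear signal of the 9 leukocyte genes on the array was 555 to 943 on the untreated and 1760 to 3370 on the treated arrays, that of the 10 fibroblast genes 363 to 472 and 1080 to 1810, and that of the 6 endothelial genes 111 to 134 and 214 to 315. Of these genes 1, 6 and 2 were above background on no array, in the same order. Their part in the rise of *KRT20*, *TFF2*, *TFF3* and *LGALS4* was not tested.

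Over the 8 arrays the 3 genes with the widest spread of their condition means, *TFF2*, *TFF3* and *KRT20*, had many followers, since the arrays fall into treated and untreated. The gene names most like *TFF2* were *IZUMO2* (Pearson's r = 0.998), *NPTX2* (0.997) and *FOXL2* (0.997). Nearest to *TFF3* were *PSG8*, *IRGM* and a transcript without a symbol (0.993 each). They were picked by r over these arrays, so their lower value in the treated TET1-KD1 comes with that choice. *PSG8* read 3.26 there, under the dimmest signal called above background on that array (3.98), and 4.67 in the treated TET1-KD2. For *KRT20* they were *GAGE2B* (0.997), a member of a family of near-identical copies whose signal is uncertain, *QPRT* (0.995) and *ZNF630* (0.995). Among the members themselves, r over the same 8 arrays was 0.975 for *TFF2* and *TFF3*, 0.974 for *TFF2* and *KRT20*, 0.905 for *CDX1* and *MUC2*, and -0.91 for *TFF1* and *TFF2*. These values share arrays and scaling and are given as a description.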

How the data were processed

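Total RNA of 4 HCT116 clones was hybridized to 8 one-color arrays (60-base probes, positions on hg19). The authors deposited spot intensity values from Feature Extraction 10.7.3.1, with the background subtracted and the arrays not scaled to each other. The authors analyzed them in GeneSpring GX, and their normalization there is not given in the sources used here.

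Intensities were scaled so that the 75th percentile of every array equalled the geometric mean over the arrays, with a floor of 1 before the log2. Spots flagged as non-uniform or outliers were left out and repeated probes averaged (median coefficient of variation 2.95% to 4.43%). Each member probe is a single spot. The 27287 probes above background on both arrays of a condition were tested with limma 3.58.1 in R 4.3.3, in 1 fit over all 8 arrays with 4 conditions, Benjamini-Hochberg adjustment over all tested probes and a threshold of 0.05. The brightest tested probe stands for a gene. Only 2 arrays a condition limit the precision. Fits were checked on simulated arrays, drawn without clone pairs or a slide effect, so this check covers neither.

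The same clone untreated and treated makes a pair, and its arrays deviated together from the group means (r = 0.198 in control, 0.476 in knockdown clones). The genes, the lists and the tests were chosen with earlier results of these data known. Named genes are all 10 members, *TET1*, genes of each list among its up to 3 largest called rises and falls in either kind of clone, and the 3 gene names most like each of the 3 most variable members. Some list genes that this rule names are not reported here. Probe positions come from the array annotation, and exons were not assigned. Alternatives were other background correction, scaling, filters, offsets, samples and tests, and leaving out each array.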

Additional observations from a re-analysis of the deposited data

Results flagged for a closer look

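The difference in the *MUC2* response between *TET1* knockdown and control clones, 2.19 in log2 signal, was the only such difference among the 8 tested genes that passed limma's test of the interaction (adjusted p = 0.0401). With the clone as a block the adjusted p was 0.0705, and the difference was called under 6 of 19 alternatives, at 0.61 to 2.54. The treated control signal was not well above background. The signal read lower after 5-aza-dC in 4 of 4 clones. The treated control arrays alone lay on the second slide, so slide and a difference in response cannot be told apart.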

How the results depend on the processing

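Of the 8 tested genes, limma called 7 for 5-aza-dC in the control clones, 4 in the knockdown clones, 0 between untreated clones, 2 between treated clones and 1 for the difference in response. With normexp background correction 2 were called in the knockdown clones, 1 between treated clones and 0 for the difference. Spike-in scaling and the subtracted GC trend each gave 1 between treated clones and 0 for the difference in response. Without a filter on dim probes 2 were called in the knockdown clones and 0 for the difference. With only probes above background on all 8 arrays, where 3 genes were left, the counts were 2 in control clones, 0 in knockdown clones, 1 between treated clones and 0 for the difference. When clone entered as the replicate block, the difference in response had 0 calls and *TFF3* in the knockdown clones an adjusted p of 0.079, and no other call of the 8 genes changed. A fit to only the 4 arrays compared called 2 in the knockdown clones and 1 between treated clones, the methods' t-test on those arrays, after Benjamini-Hochberg, 3, 0 and 0 in control clones, knockdown clones and between treated clones, the mean of a gene's probes 1 between treated clones, and the first slide alone 2 in the knockdown clones. Leaving out 1 array gave 2 to 4 in the knockdown clones, 0 to 2 between treated clones and 0 to 2 for the difference. *KRT20*, *TFF2* and *TFF3* were called in the control clones under all 21 alternatives that tested them, and no direction of a called value reversed. Over all gene names the counts were 8229 (3138 to 9954 over the alternatives) in control clones, 2469 (0 to 4613) in knockdown clones, 4 (0 to 30) untreated, 3618 (0 to 4350) between treated clones and 1037 (38 to 1164) for the difference. The causes were not tested, other than fewer genes or arrays where the alternative left them out. Signals near background, with 1 spot a probe, limit *VIL1*, *CEACAM6* and the untreated values of *TFF2*, *TFF3* and *LGALS4*.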
